A study of Mus musculus with 10 samples.

Results

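The 34 genes described here were listed for fatty acid and surfactant phospholipid synthesis, and include transcription factors, a binding protein and triglyceride enzymes. The list names genes of lipogenesis and of phosphatidylcholine or phosphatidylglycerol synthesis, and it has no threshold on any measured value. All 34 were found among the 16154 genes of the table, and 33 of them had values high enough to be tested. The cells were alveolar type II (AT2) cells sorted from mouse lung, and polyA RNA was sequenced from 10 libraries. The 5 knockout libraries, replicates 1 to 5, carry the genotype label HOIL-1L -/-, and the 5 wild type libraries, replicates 2 to 6, the label wild type. Every mouse was of strain C57BL/6 and aged 8 to 10 weeks. The design text describes the knockout differently, as CreSPC/HOIL-1L fl/fl, in which a Cre recombinase under the surfactant protein C promoter would delete a floxed allele in AT2 cells and not in the whole mouse. HOIL-1L, encoded by Rbck1, is part of LUBAC, a ligase that joins ubiquitin molecules into linear chains. The letter N in every title is not explained by the labels and was not used.

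Surfactant lowers surface tension in the alveolus, and its main lipid is a phosphatidylcholine with saturated palmitate chains. In AT2 cells, citrate is cleaved to acetyl-CoA, carboxylated to malonyl-CoA and built into palmitate, a path whose genes are activated by the transcription factor SREBP-1c, a product of Srebf1. Acyl chains are then desaturated, elongated, activated with coenzyme A and attached to glycerol, and choline is added through the CDP-choline pathway before the finished chains are remodelled by LPCAT1.

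Group names below are those of the labels, although the target gene goes against 2 of them. Rbck1 stood at 59.3, 29.8, 36.4, 38.0 and 38.8 normalized counts per M (mega, as in megabase) in the libraries labelled knockout 1 to 5, and at 29.7, 56.7, 57.8, 56.1 and 56.6 in those labelled wild type 2 to 6. The library labelled knockout 1 therefore stood above every wild type library, and the library labelled wild type 2 below every knockout library. Each comparison is accordingly given for all 10 libraries and for the 8 that remain without these 2. Judged by Xist and Y-linked genes, knockout 2 and 3 and wild type 2 were female and the other 7 libraries male. Mouse numbers form a first run (knockout 1 to 3, wild type 2 and 3) and a second run (knockout 4 and 5, wild type 4 to 6). Depth was roughly 7.69 to 13.2 M reads per library, so that 1 read was worth 0.0746 to 0.127 per M. All 13 AT2 markers listed were measured, and their summed level was 223179 to 259836 per M in knockout and 224763 to 268502 per M in wild type libraries. In the 8 libraries the sums were 223179 to 233673 and 224763 to 268372. Log2 fold changes, knockout over wild type, were above 0 for 3 of the 13 in each comparison. Over the 10 libraries, 4 club cell markers summed to 4873 to 9037 per M in knockout and 4635 to 9179 in wild type. For 8 AT1 markers the sums were 2132 to 2514 and 2135 to 2756. Of 10 macrophage and monocyte markers, 5 were high enough to be tested. Most of that list's sum was Lyz1, and without Lyz1 it was 22.2 to 51.7 per M in knockout and 20.7 to 49.0 per M in wild type libraries, with Itgam below 1 per M everywhere.

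The promoter windows of 3 members are shown because they carry, in capitals, the motifs through which lipogenic genes are known to be read by SREBP factors and their partner NF-Y. The windows are the 250 bases before a RefSeq transcript start in GRCm38.p6, printed 5′ to 3′ on the strand of the gene. Pcyt1a (chr16:32430671-32430920, plus strand) has the letters TCACCCCAC from 116 to 108 bases before the start, a match to the sterol regulatory element motif TCACNCCAC. Fasn (chr11:120824548-120824797, minus strand) has 3 NF-Y boxes, CCAAT or its reverse complement ATTGG, of which the last pair overlap. Srebf1 is shown for a start within the gene (chr11:60210472-60210721, minus strand), with 1 NF-Y box in reverse. The window of another start within the gene (chr11:60220628-60220877) has none of the motifs.
Pcyt1a: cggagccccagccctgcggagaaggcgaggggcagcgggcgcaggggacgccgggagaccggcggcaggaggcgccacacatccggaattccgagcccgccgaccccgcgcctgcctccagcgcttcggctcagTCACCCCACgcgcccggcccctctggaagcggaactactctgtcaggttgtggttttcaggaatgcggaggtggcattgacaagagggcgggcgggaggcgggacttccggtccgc
Fasn: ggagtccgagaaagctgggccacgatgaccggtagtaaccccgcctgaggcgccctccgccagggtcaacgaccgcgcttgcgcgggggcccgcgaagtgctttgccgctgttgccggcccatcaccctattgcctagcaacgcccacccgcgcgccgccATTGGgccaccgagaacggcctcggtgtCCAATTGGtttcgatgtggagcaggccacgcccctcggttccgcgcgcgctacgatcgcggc
Srebf1: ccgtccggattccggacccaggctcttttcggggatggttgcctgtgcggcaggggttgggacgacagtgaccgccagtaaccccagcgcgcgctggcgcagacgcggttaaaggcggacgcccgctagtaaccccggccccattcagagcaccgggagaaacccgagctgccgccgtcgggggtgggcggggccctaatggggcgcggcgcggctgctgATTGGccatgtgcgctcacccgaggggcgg

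Windows were found for 28 of the 34 members, 42 windows in all, and both strands were searched. The sterol regulatory element motif was in a window of 3 members (Acsl1, Mlxipl and Pcyt1a), or 10.7%, against 1.22% of the 27025 genes with a window. The E-box CACGTG, which USF factors bind, was also in 3 members (Elovl5, Lpin2 and Mlxipl), or 10.7%, against 6.86% of all genes. CCAAT was in 16 members, or 57.1%, against 37.5% of all genes. A gene counted if any of its windows held the motif. Members had 42 windows for 28 genes, and all genes 32851 windows for 27025. Members thus had more windows per gene, and these shares are not matched for that. Of all windows, 33.8% held CCAAT. No motif overlapped one of another kind in the windows printed. These are matches of letters within 250 bases and not measured binding sites.

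AT2 cells held these genes at widely different levels. Levels are compared between genes as the mean of normalized counts per M per kb of exon over the 10 libraries. Exon length counts every base that lies in any annotated exon of the gene, and the order depends on it. Scd1, the main stearoyl-CoA desaturase, was highest at 3112, higher per kb than 99.9% of all genes. Elovl1, an elongase of very long saturated chains, followed at 854, Lpcat1 at 680.1, Fasn, the fatty acid synthase, at 551, Scd2 at 319 and Acly, the ATP citrate lyase, at 241. Each of Scd1 and Elovl1 stood above its next neighbour with no overlap between libraries, whereas the libraries of Lpcat1 and Fasn overlapped in range, as did those of Scd2 and Acly. Within every one of the 10 libraries, Lpcat1 was nevertheless above Fasn per kb and Scd2 above Acly. Per M, without division by exon length, Fasn at 6031 stood above Lpcat1 at 3150, and Lpcat1 above Elovl1 at 2327. At the other end stood Dgat2 at 1.42, Mlxipl at 0.767, Pemt at 0.736, Pcyt1b at 0.252 and Elovl6 at 0.0984. Mlxipl encodes ChREBP, the carbohydrate-responsive factor of lipogenesis, and Pemt the enzyme that makes phosphatidylcholine by methylation, mainly in liver. Elovl6, the elongase of palmitate, reached 1 per M in knockout 1 and wild type 5 only, was listed at 0 in knockout 4, and was not tested.

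Paired enzymes of 1 step differed in level. Pcyt1a, the alpha form of the enzyme that makes CDP-choline and the rate-limiting one of that pathway, stood at 16.6 per M per kb, against 0.252 for Pcyt1b, the beta form. Acaca, the cytosolic acetyl-CoA carboxylase, stood at 30.0 and Acacb, its mitochondrial form, at 5.19. The acyl-CoA synthetases ran from 166 for Acsl4 and 125 for Acsl5 to 8.67 for Acsl3 and 3.0 for Acsl1. Cept1 stood at 22.0 and Chpt1 at 10.5, both enzymes of the last step of the CDP-choline pathway. Per M their order was reversed, at 68.7 for Cept1 and 87.2 for Chpt1, with exon lengths of 3116 and 8324 bases. Together the 34 genes made up 3.35% to 3.85% of all normalized counts in knockout libraries and 3.21% to 3.99% in wild type libraries, and Scd1 alone was 39.3% to 44.8% of that sum in knockout and 38.2% to 51.4% in wild type.

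**Figure D1:**
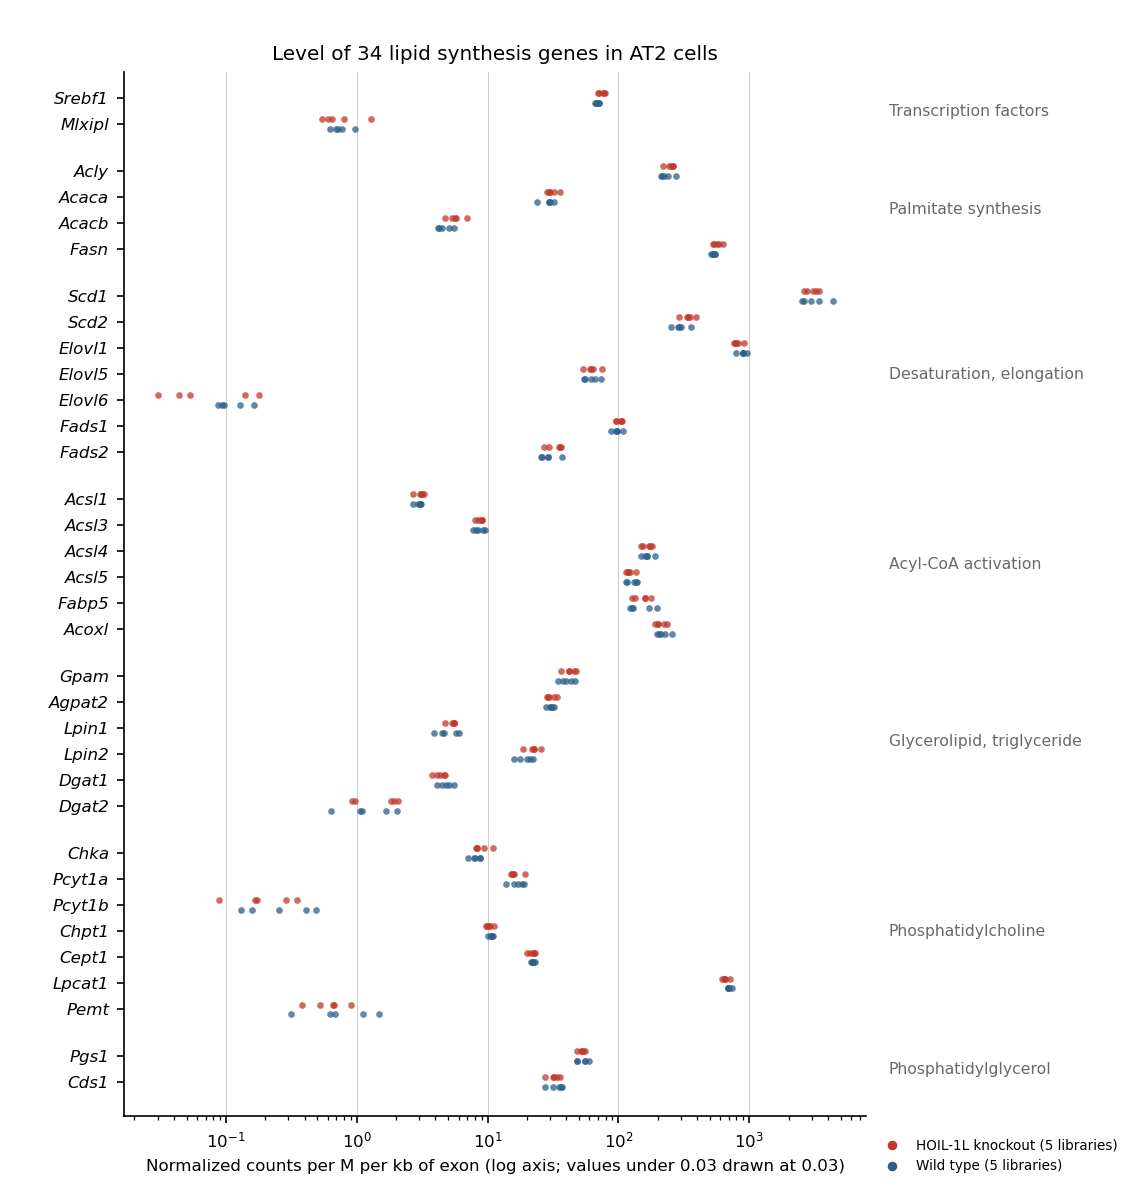
Level of each of the 34 genes in every library, as normalized counts per M per kb of exon on a log axis, with knockout libraries above wild type libraries in each row and genes grouped by role. Scd1 is highest and Elovl6 lowest, and the rows of both genotypes overlap for every gene.

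No gene of the set passed the test for a difference between knockout and wild type AT2 cells, and most fold changes were estimated to be small. With all 10 libraries, 0 of the 33 tested members passed an adjusted p of 0.05 with limma, against 0.0% of the 12946 genes tested. The smallest adjusted p among members was 0.440, for Acacb. At an unadjusted p under 0.05 there were 3 members, Acacb, Lpin2 and Scd2, all higher in knockout. Of all genes 9.48% had such a p, 6.2% higher and 3.28% lower in knockout. The median log2 fold change of the members was 0.01 and that of all genes 0.01, with 19 of 33 members and 51.3% of all genes above 0. In 0 members were the groups apart with no overlap, while among all genes they were apart in 0.958% with knockout higher and in 0.633% with knockout lower. In bulk RNA of sorted cells, a lower value cannot be told apart between fewer cells of a type and less RNA per cell.

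Without the libraries labelled knockout 1 and wild type 2 the count of members that passed was again 0 with limma, while 52 genes, 0.402% of those tested, did so. The smallest adjusted p among members was 0.232, again for Acacb. At an unadjusted p under 0.05 there were 2 members, Acacb and Lpin2, both higher, against 7.84% of all genes higher and 5.25% lower. Sex is tied to genotype in these 8 libraries, since both females are knockout and all 4 wild type libraries are male. With sex as a covariate 0 members had a limma p under 0.05, against 1500 of the 12941 genes fitted. In males alone it was 0 members as well, against 1356 of 12946 genes. The log2 fold changes were 0.26 for Acacb and 0.21 for Lpin2 in either fit. Both fits take the genotype difference from the males only, knockout 4 and 5 against wild type 3 to 6. They are therefore not separate checks. The median of the members was -0.00 and that of all genes 0.00, with 16 of 33 members above 0. That split rests on the scaling, since 22 of 33 members lay above 0 when column totals were made equal, a scaling that moved the median of all genes to 0.04. In 1 member, Lpcat1, every knockout library lay below every wild type library, which happened for 2.87% of all genes.

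The intervals show how large a difference these libraries could have hidden. For 30 of 33 members, or 90.9%, the 95% interval of the fold change lay within 1.5-fold either way with all 10 libraries, and for 79.7% of all genes. It lay within 1.25-fold for 21 members and for 40.3% of all genes. With 8 libraries the counts were 30 members within 1.5-fold and 20 within 1.25-fold, against 74.5% and 32.8% of all genes. The 3 genes with wider intervals were Dgat2, Pcyt1b and Pemt in both comparisons, and none of them exceeded 6.39 per M in any library. Fabp5 and Acsl4 had folds, knockout over wild type, between 0.851 and 1.23 and between 0.894 and 1.13 at the ends of their intervals. For Agpat2, which makes phosphatidic acid, the ends were 0.907 and 1.12.

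**Figure D2:**
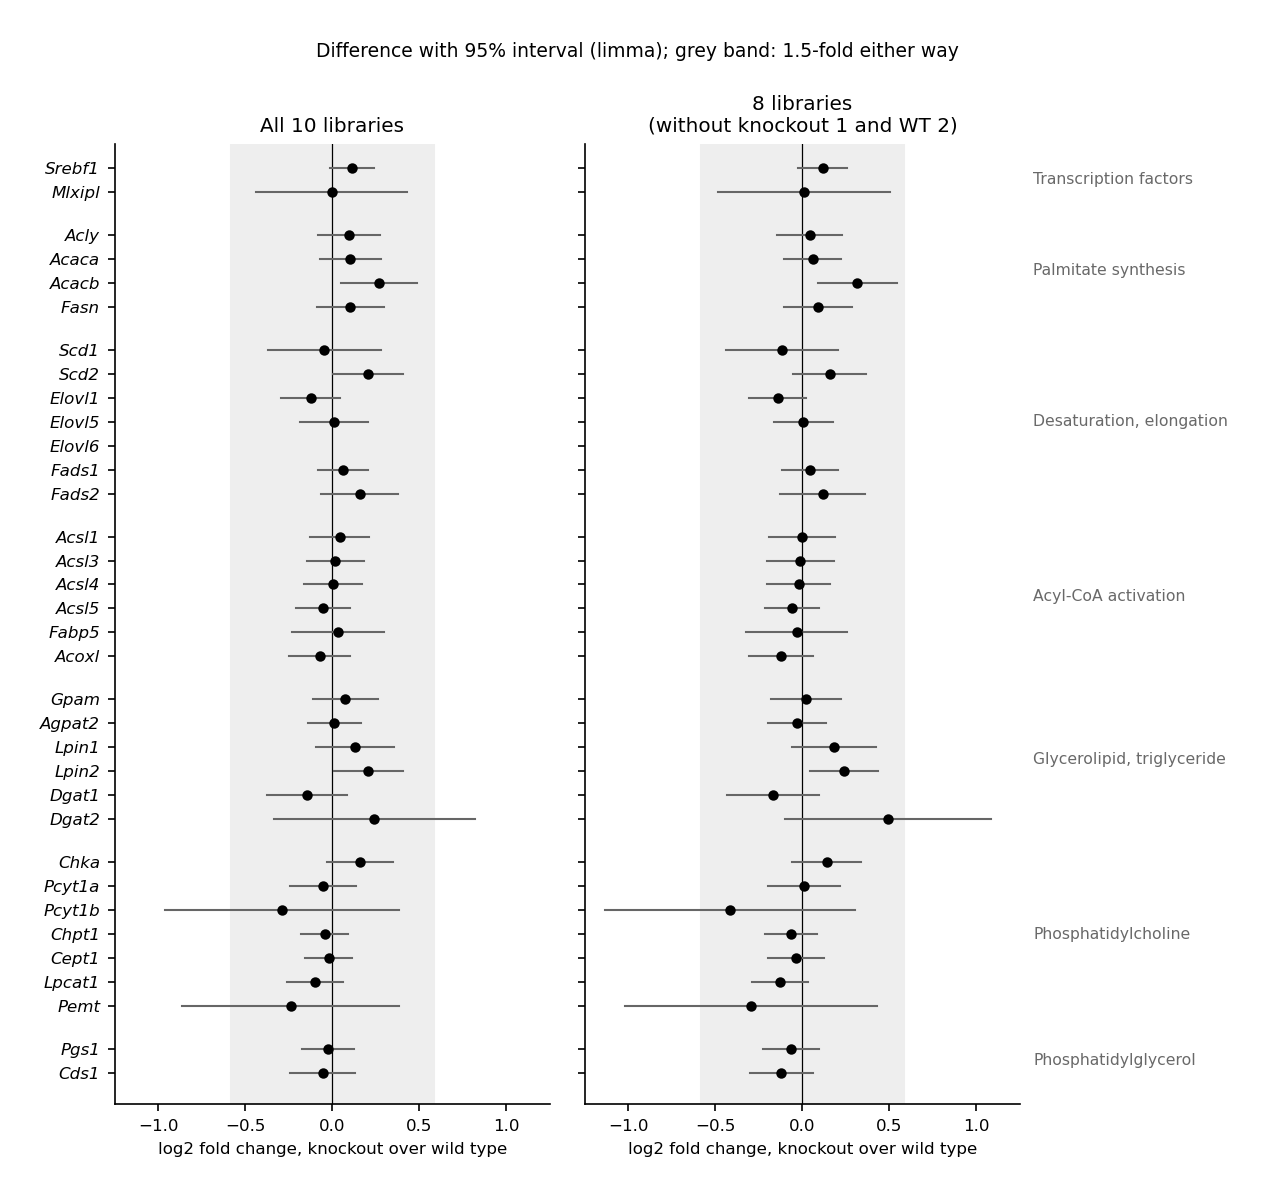
Log2 fold change, knockout over wild type, with its 95% interval from limma for the 33 tested members, on the left with all 10 libraries and on the right without knockout 1 and wild type 2. The grey band marks 1.5-fold either way, and the intervals of Dgat2, Pcyt1b and Pemt reach beyond it in both panels.

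Among the transcription factors, Srebf1 was somewhat higher in 3 knockout libraries without passing. Srebf1 (ENSMUSG00000020538, mm10 chromosome 11, 60199089 to 60222581, minus strand) stood at 402, 394, 438, 444 and 427 per M in knockout 1 to 5, against 375, 382, 384, 399 and 403 per M in wild type 2 to 6. Knockout 3, 4 and 5 lay above every wild type library, and knockout 1 and 2 within the wild type range. The log2 fold change was 0.11 ± 0.06 (SE, limma adjusted p = 0.573), and 0.12 ± 0.07 in the 8 libraries (adjusted p = 0.461). Within the first run it was 0.12 and within the second 0.14. The first run holds knockout 1 and wild type 2, whose Rbck1 level goes against their labels, and every female library. Values within the first run, here and for the genes below, include this pair and were not computed without it. Mlxipl stayed between 3.0 and 7.17 per M over all libraries, with log2 fold changes of -0.00 and 0.01.

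All 4 genes of palmitate synthesis had log2 fold changes above 0 in both comparisons, with medians of 0.10 and 0.07, and none passed. Acacb (ENSMUSG00000042010, chromosome 5, 114146535 to 114250761, plus strand) makes the malonyl-CoA that restrains fatty acid oxidation at the mitochondrion. It stood at 45.5, 51.8, 67.4, 54.9 and 54.0 per M in knockout 1 to 5, against 43.1, 53.1, 49.1, 40.5 and 40.6 per M in wild type 2 to 6. Knockout 3, 4 and 5 exceeded every wild type library, whereas the library labelled knockout 1 lay below wild type 3 and 4. Knockout libraries averaged 54.7 ± 7.97 and wild type libraries 45.3 ± 5.59 per M (SD, n = 5 each). The log2 fold change was 0.27 ± 0.10 (SE), with limma adjusted p = 0.440. Without the doubted pair of libraries it was 0.31 ± 0.11 (SE), with limma adjusted p = 0.232. It was 0.18 within the first run and 0.33 within the second. Fasn stood at 6186, 6405, 5783, 5932 and 6948 per M in knockout 1 to 5, against 5578, 5984, 5798, 5748 and 5952 per M in wild type 2 to 6. Knockout 1, 2 and 5 lay above all wild type libraries and knockout 3 and 4 among them. Its log2 fold change was 0.10 ± 0.09 (SE), with limma adjusted p = 0.739. Without knockout 5, its highest library, it was 0.0636 over the other 9 libraries, and 0.0399 when the doubted pair was left out too. Acly, which supplies acetyl-CoA, had 1372, 1169, 1289.7, 1384 and 1345 per M in knockout 1 to 5, against 1110.4, 1466, 1185, 1133 and 1265 per M in wild type 2 to 6. All knockout libraries lay within the wild type range, and the log2 fold changes were 0.10 ± 0.08 and 0.04 ± 0.09 (SE) in the 10 and the 8 libraries. Acaca had values of 486 to 608 per M in knockout and 410.1 to 548 per M in wild type libraries.

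Removing each library's trend of value on exon length moved several of these fold changes by more than 1.5 times. With all 10 libraries the log2 fold change of Fasn became 0.01, that of Lpin2 0.11 and that of Chka 0.06, and 3 of the 4 palmitate genes were then above 0 in each comparison. Acacb became 0.19 and 0.24 in the 10 and the 8 libraries, and 0 members then had an unadjusted p under 0.05 with limma. Of all 12946 genes, 987 had such a p with 10 libraries and 1573 with 8. Before the trend was removed these counts were 1227 and 1695, so they fell over the whole table as well. The phosphatidylcholine genes moved further below 0, to medians of -0.10 and -0.13, and Pcyt1a to -0.10 with all 10 libraries. Of the acyl-CoA genes 2 of 6 were then above 0 with 10 libraries and 0 with 8.

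In desaturation and elongation, 4 of 6 tested genes lay above 0 in both comparisons and none passed. Scd1 (ENSMUSG00000037071, chromosome 19, 44394455 to 44407879, minus strand) introduces the double bond of oleate and palmitoleate. Its level was 15175, 13614, 12953, 16736 and 15872 per M in knockout 1 to 5, against 12829, 16753, 21217, 14594 and 12512 per M in wild type 2 to 6. Every knockout library lay within the wild type range, whose highest and lowest libraries were wild type 4 and 6. The log2 fold change was -0.05 ± 0.15 (SE, limma adjusted p = 0.944), and 0.07 without wild type 4. Scd2, a second desaturase that lies next to Scd1 on chromosome 19, stood at 2141, 1592, 1853, 1913 and 1839.9 per M in knockout 1 to 5, against 1633, 1955, 1392, 1555 and 1583 per M in wild type 2 to 6. The library labelled knockout 1 was highest and wild type 3 next, and knockout 3, 4 and 5 exceeded the other 4 wild type libraries. Its log2 fold change was 0.20 ± 0.10 (SE), with limma adjusted p = 0.525, and 0.16 ± 0.10 in the 8 libraries. Within the first run it was 0.05 and within the second 0.32. In the 8 libraries it was 0.0883 without wild type 4, and 0.25 without wild type 3. Scd1 and Scd2 are close paralogs, and how reads that match both were counted is not given in the sources used here.

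Elovl1 pointed the other way. It stood at 2508, 2094, 2166, 2112 and 2259.6 per M in knockout 1 to 5, against 2605, 2443, 2468, 2177 and 2434 per M in wild type 2 to 6. Knockout 2, 3 and 4 lay below every wild type library, knockout 5 below all but wild type 5, and the library labelled knockout 1 below wild type 2 only. The log2 fold change was -0.12 ± 0.08 with all 10 and -0.14 ± 0.08 with 8 libraries (SE, limma adjusted p = 0.639 and 0.449). Of the polyunsaturated fatty acid genes, Fads1 and Fads2, the delta-5 and delta-6 desaturases, had log2 fold changes of 0.06 ± 0.07 and 0.16 ± 0.10 (SE), and Elovl5, their elongase, 0.01 ± 0.09.

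Genes of acyl-CoA activation and binding had fold changes near 1, and none passed. Over all 10 libraries the 6 log2 fold changes lay between -0.07 for Acoxl and 0.04 for Acsl1, and in the 8 libraries between -0.12 and -0.00. In the 8 libraries 0 of 6 lay above 0, and 4 of 6 did with equal column totals. Acsl4, which prefers arachidonate, ran from 800.0 to 1023 per M over all libraries, and Acsl5 from 553 to 674. Acoxl, named for its likeness to acyl-CoA oxidases, had 604 to 745 per M in knockout and 625 to 823 per M in wild type libraries. Fabp5, a fatty acid binding protein that alveolar macrophages also make, had 453 to 630.2 per M in knockout and 438 to 709 per M in wild type libraries. In the 8 libraries the summed macrophage list was 2781 to 3365 per M in knockout and 1845 to 2389.6 per M in wild type, and 5 of its 5 tested genes lay above 0. With all 10 libraries the sums overlapped, at 2313 to 3365 per M in knockout and 1845 to 4184 per M in wild type, and so they did in the 8 libraries once Lyz1 was left out, at 22.2 to 51.7 per M in knockout and 20.7 to 49.0 per M in wild type. The part of these cells in the values of Fabp5 was not tested.

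Of the 6 genes of glycerolipid and triglyceride synthesis, 5 lay above 0 with all 10 libraries and 4 with 8, and none passed. Lpin2 (ENSMUSG00000024052, chromosome 17, 71182560 to 71249817, plus strand) encodes a phosphatidate phosphatase that yields diacylglycerol, the acceptor of phosphocholine. It stood at 229, 268, 315, 279.7 and 276 per M in knockout 1 to 5, against 216, 197, 243, 257 and 273 per M in wild type 2 to 6. Knockout 3, 4 and 5 lay above every wild type library and knockout 2 above all but wild type 6. Knockout libraries averaged 273 ± 30.7 and wild type libraries 237 ± 30.8 per M (SD, n = 5 each). The log2 fold change was 0.21 ± 0.09 (SE), with limma adjusted p = 0.510. With 8 libraries it was 0.24 ± 0.09 (SE), with limma adjusted p = 0.292. Within the first run it was 0.38, and 0.11 within the second. Without wild type 3, its lowest library, it was 0.14 both over the other 9 libraries and when the doubted pair was left out too. Dgat2, 1 of the enzymes of the last step to triglyceride, had 2.83, 5.99, 6.39, 5.64 and 2.99 per M in knockout 1 to 5, against 5.13, 6.31, 1.95, 3.28 and 3.40 per M in wild type 2 to 6. Knockout 2, 3 and 4 and wild type 2 and 3 formed its higher values and the other 5 libraries its lower ones. Its log2 fold change was 0.24 ± 0.27 with all 10 libraries, 0.49 ± 0.28 with 8, -0.22 within the first run and 0.49 within the second. Without wild type 4 alone it was 0.0420 with the other 9 and 0.26 with the other 7 libraries, and without wild type 3 alone 0.41 and 0.75. With sex as a covariate it was 0.12 with all 10 and 0.22 with 8 libraries. Dgat1, the other enzyme of that step, had -0.15 ± 0.11 and Gpam, which starts glycerolipid synthesis, 0.08 ± 0.09 (SE). Lpin1, a further phosphatidate phosphatase, had 0.13 ± 0.11 and Agpat2 0.01 ± 0.07 (SE).

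In the phosphatidylcholine pathway, 1 of 7 log2 fold changes lay above 0 with all 10 libraries and 2 with 8, with medians of -0.05 and -0.07, and none passed. Chka, which phosphorylates choline, was the exception, at 101, 101, 114, 134 and 97.4 per M in knockout 1 to 5, against 85.2, 96.1, 94.5, 105 and 106 per M in wild type 2 to 6. Knockout 3 and 4 stood above all wild type libraries and the other 3 knockout libraries within their range. Its log2 fold change was 0.16 ± 0.09 (SE, limma adjusted p = 0.589). Without knockout 4, its highest library, it was 0.0849 over the other 9 libraries, and 0.0492 when the doubted pair was left out too. Pcyt1a had 112, 117, 117, 114 and 143 per M in knockout 1 to 5, against 137, 119, 103, 128 and 139.9 per M in wild type 2 to 6. Knockout 5 was the highest library of all, and the other 4 knockout libraries lay within the lower part of the wild type range. The log2 fold changes of Pcyt1a were -0.05 ± 0.09 and 0.01 ± 0.10 (SE) in the 10 and the 8 libraries. Chpt1 and Cept1 had -0.04 ± 0.06 and -0.02 ± 0.06 (SE) with all 10 libraries, the smallest errors among the members together with that of Srebf1. The low genes Pcyt1b and Pemt had -0.29 ± 0.32 and -0.24 ± 0.30 (SE), the largest errors.

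Lpcat1 (ENSMUSG00000021608, chromosome 13, 73467197 to 73516422, plus strand) encodes the lysophosphatidylcholine acyltransferase that puts palmitate into surfactant phosphatidylcholine. It stood at 3296, 2987, 2876, 3027 and 3040.2 per M in knockout 1 to 5, against 3238, 3405, 3206, 3218 and 3208 per M in wild type 2 to 6. Knockout 2 to 5 lay below every wild type library, and the library labelled knockout 1 above all but wild type 3. Knockout libraries averaged 3045 ± 154 and wild type libraries 3255 ± 85.0 per M (SD, n = 5 each). Over the 8 libraries the averages were 2983 ± 74.8 per M in knockout and 3259 ± 97.5 per M in wild type (SD, n = 4 each). The log2 fold changes were -0.10 ± 0.08 and -0.13 ± 0.08 (SE, limma adjusted p = 0.702 and 0.490), and the 95% intervals of the fold ran from 0.836 to 1.05 and from 0.817 to 1.02. Of the phosphatidylglycerol genes, Cds1, which makes CDP-diacylglycerol, had -0.05 ± 0.09 and Pgs1 -0.03 ± 0.07 (SE) with all 10 libraries.

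**Figure D3:**
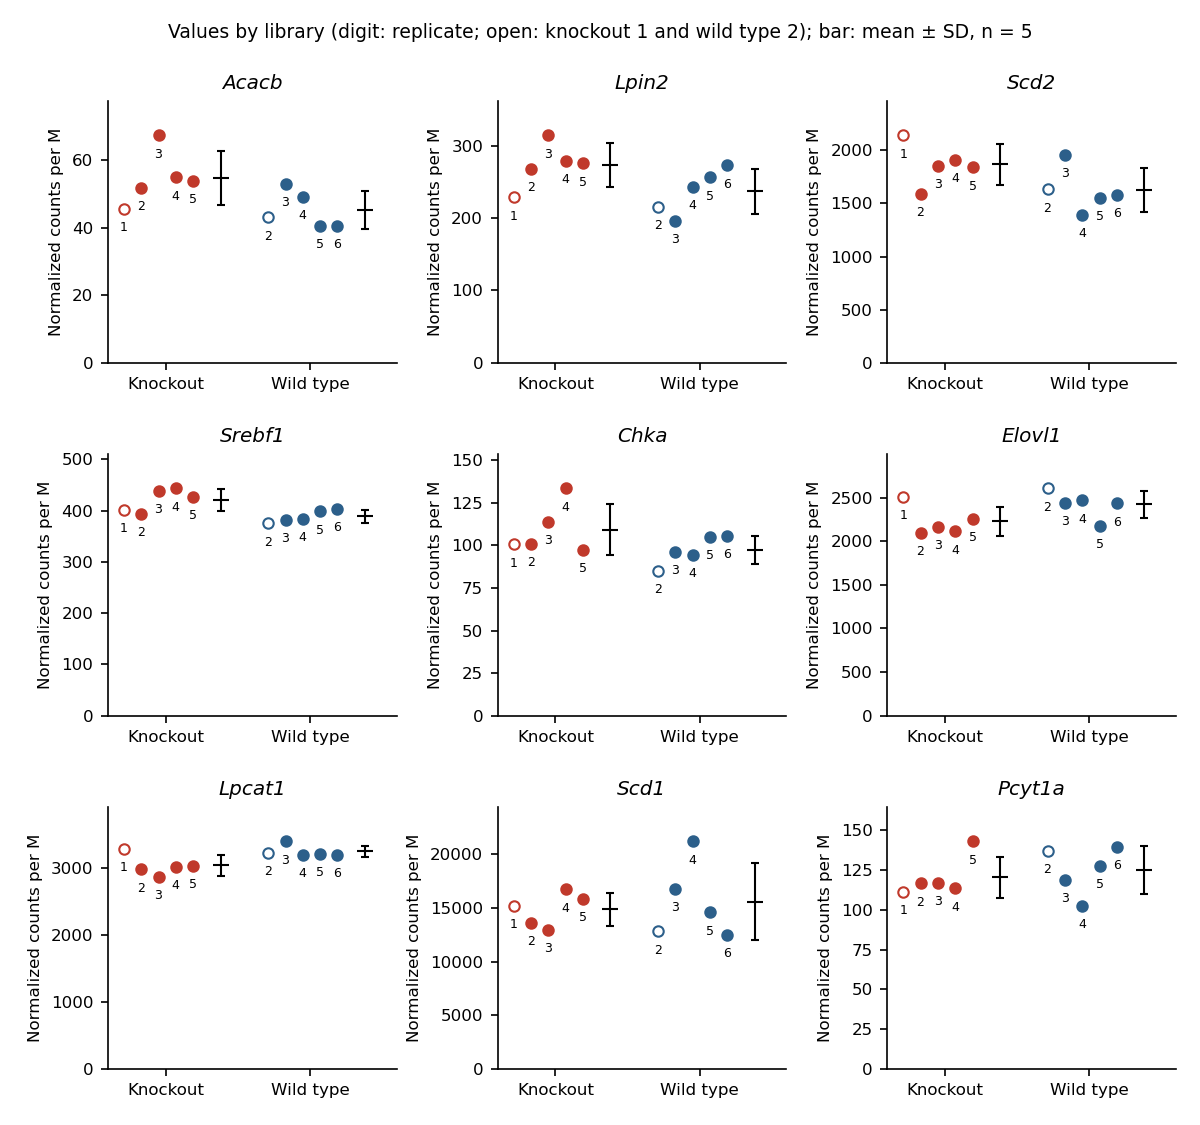
Normalized counts per M of 9 members in each library, with the digit giving the replicate, open circles the libraries labelled knockout 1 and wild type 2, and bars the mean ± SD over 5 libraries. Knockout 3, 4 and 5 lie above all wild type libraries for Acacb, Lpin2 and Srebf1, and knockout 2 to 5 below all of them for Lpcat1.

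Libraries differed in lipid genes within each genotype as well. The median SD of log2 values over the 10 libraries was 0.153 for the tested members and 0.188 for all genes tested. Where the mean reached 20 per M it was 0.137 for 28 members and 0.141 for 6371 genes. The median deviation of the members from their own means was 0.05, -0.06, -0.01, 0.07 and 0.01 in knockout 1 to 5, and -0.09, 0.10, -0.04, -0.04 and -0.04 in wild type 2 to 6 (log2). Wild type 3 was thus the highest library and wild type 2 the lowest, and both come from the first run. Among members whose mean reached 10 per M, the largest single deviation was 0.50, for Scd1 in wild type 4. Fabp5 was also highest in that library, where Lpin1 was lowest.

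**Figure D4:**
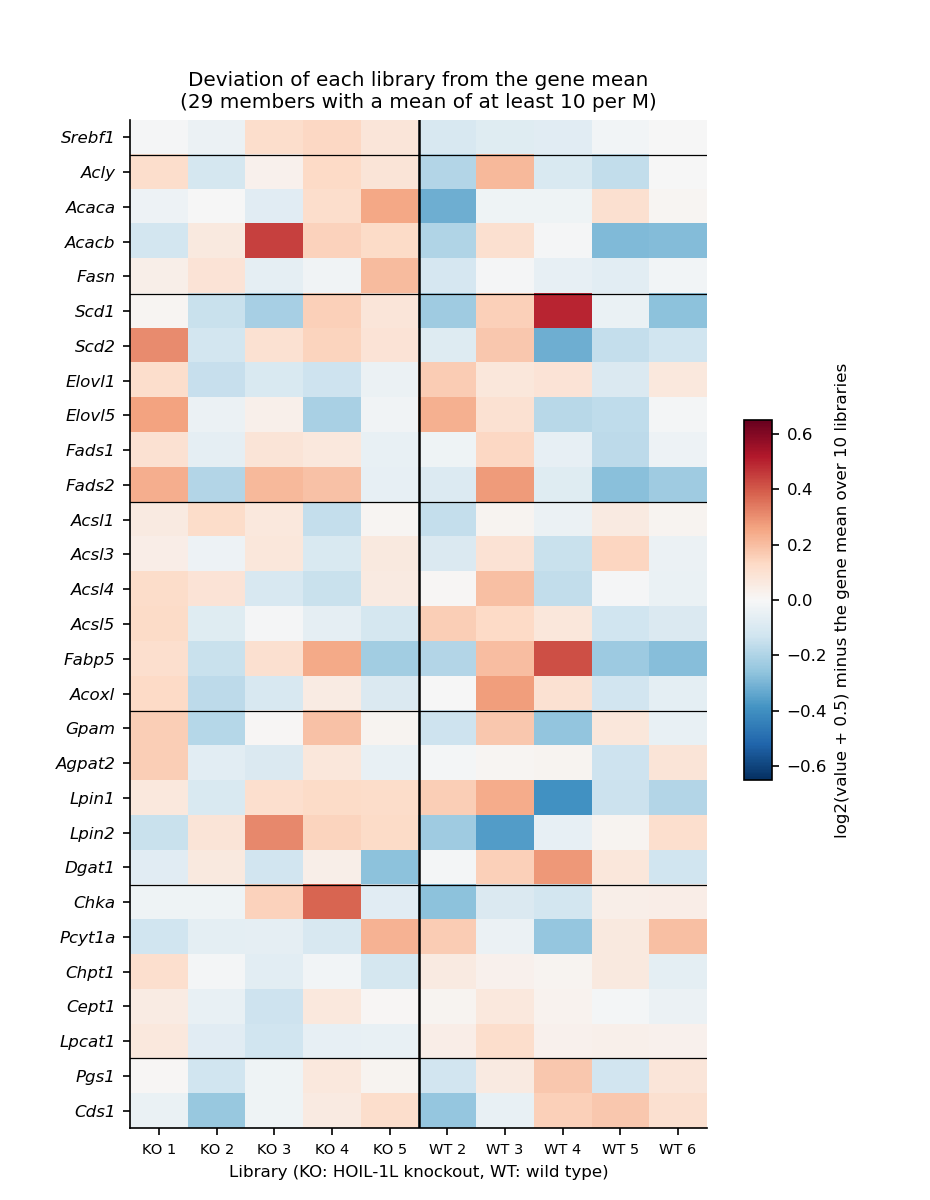
Deviation of each library from the gene's own mean over 10 libraries, as log2(value + 0.5), for the 29 tested members whose mean reached 10 per M, with knockout libraries left of the vertical line and horizontal lines between roles. Red cells are above and blue cells below the mean, and in every role with several rows each genotype holds cells of both colours.

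The runs were compared with genotype as a covariate. Between the second and the first run 81 genes passed with limma, 0.626% of those tested, and 0 members did. At an unadjusted p under 0.05 there were 6 members (15.8% of all genes). Cds1 (log2 difference 0.24 ± 0.07 SE, limma adjusted p = 0.0970), Acaca (0.21 ± 0.07) and Lpin2 (0.19 ± 0.08) were higher in the second run, and Elovl5 (-0.24 ± 0.07), Acsl5 (-0.14 ± 0.07) and Dgat2 (-0.55 ± 0.25) lower. Whether a run was a day of sorting or of library preparation is not given by the labels. The female libraries, knockout 2 and 3 and wild type 2, were all in the first run, and the second run was all male. Sex was not in this fit, which cannot tell differences between runs from those between sexes.

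Srebf1 was set against 8 genes known as targets of SREBP-1c, to see whether they varied with it from mouse to mouse. No relation passed. Over 10 libraries, Pearson's r of log2 values was 0.57 for Acaca (rho 0.49, permutation test, two-sided, p = 0.0693, adjusted p = 0.437 over the 8 relations). It was 0.43 for both Acly and Gpam, 0.32 for Fads2, 0.31 for Fasn, 0.22 for Fads1, -0.09 for Scd1 and -0.47 for Elovl6, with permutation adjusted p of 0.437 to 0.838. Single libraries weighed heavily on these values. Leaving out 1 library at a time gave r of 0.26 to 0.77 for Acly, 0.40 to 0.76 for Acaca, 0.0711 to 0.49 for Fasn, 0.26 to 0.66 for Gpam, 0.17 to 0.57 for Fads2 and 0.0808 to 0.48 for Fads1. For Elovl6, which was too low to be tested between genotypes, r was -0.0887 without knockout 4, the library listed at 0 for it and the highest for Srebf1, and -0.70 without knockout 3. Knockout 3, 4 and 5 held the 3 highest Srebf1 values, from 427 to 444 per M, and the other 7 libraries lay between 375 and 403. Without knockout 3 and 4, the libraries farthest from the median of Srebf1, r was 0.86 for Acaca (rho 0.71, permutation p = 0.00620, adjusted p = 0.0496) and 0.81 for Fasn (rho 0.57, permutation p = 0.0309, adjusted p = 0.124). That 1 relation passed by Pearson's r only, since rho had a permutation p of 0.0576. In the same 8 libraries the signs for Fads1 and Fads2 turned, to -0.21 and -0.16. With values centred on the mean of their run, r was 0.53 for Acaca and 0.52 for Fads2, with a smallest permutation adjusted p of 0.282. Without knockout 1 and wild type 2, r was 0.39 for Acaca, 0.41 for Gpam, 0.35 for Fads2 and 0.31 for Acly. It was 0.25 for Fads1, 0.16 for Fasn (rho -0.14), -0.30 for Scd1 and -0.44 for Elovl6, with permutation adjusted p of 0.622 to 0.723. No r was computed within a run, since each run holds 5 libraries and relations were computed only over 6 or more.

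**Figure D5:**
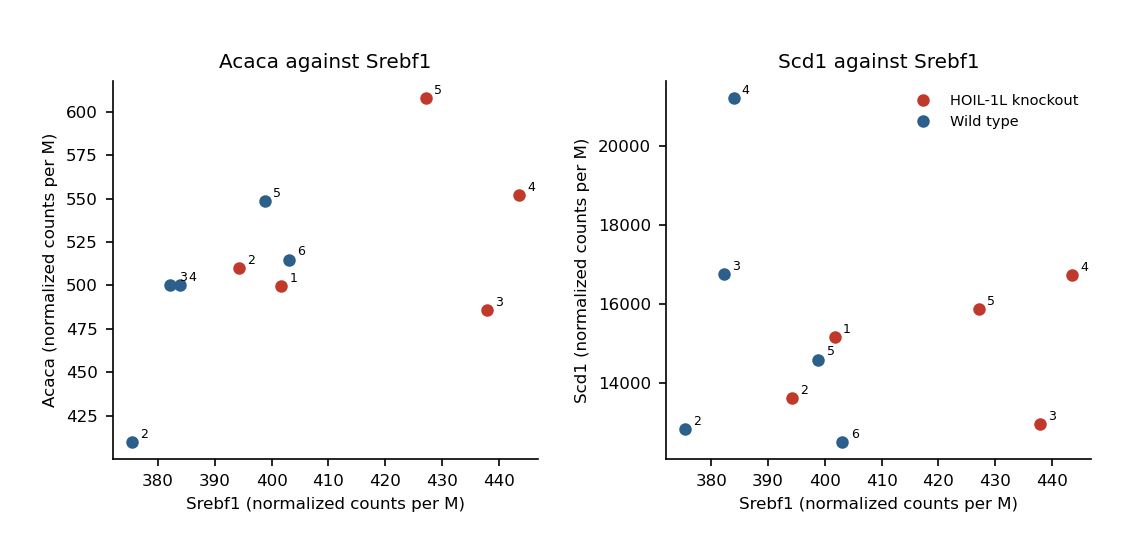
Acaca (left) and Scd1 (right) against Srebf1 in each of the 10 libraries, all as normalized counts per M, with knockout and wild type libraries in different colours and the digit giving the replicate. Acaca is lowest in wild type 2, which is also lowest for Srebf1, and Scd1 is highest in wild type 4, whose Srebf1 level is 384.

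Further genes of the same pathways did not pass either. Of 64 genes listed, 59 were in the table and 52 were tested, and 0 passed with limma in either comparison, with 26 above 0 in each. The smallest p belonged to Pla2g6, a calcium-independent phospholipase of the A2 group, whose log2 fold change was 0.23 ± 0.09 (SE, limma adjusted p = 0.447) with all 10 libraries. With 8 it was 0.30 ± 0.10 (SE, limma adjusted p = 0.208), with 20.2 to 23.2 per M in knockout and 16.8 to 18.1 per M in wild type libraries, a lack of overlap shared by 3.85% of all genes in that direction. Ptdss1, which makes phosphatidylserine, had -0.15 ± 0.08 and -0.16 ± 0.08 (SE) in the 10 and the 8 libraries. Etnk1, which phosphorylates ethanolamine, had 0.12 ± 0.07 and Acss2, which activates acetate, 0.18 ± 0.12 with all 10. In the 8 libraries Lpin3, a relative of Lpin2, had 0.32 ± 0.14 (SE, limma adjusted p = 0.345) and Ptpmt1, the phosphatidylglycerophosphate phosphatase, -0.18 ± 0.12.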

How the data were processed

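PolyA RNA of sorted AT2 cells was sequenced from 10 libraries, 1 for each mouse number in the titles (NEBNext Ultra RNA kit, NextSeq 500, per the labels' protocols). The authors deposited 1 table of normalized counts, a signal per gene for 16154 Ensembl genes and 10 columns, all used. According to the submitters' processing notes, bcl2fastq 2.17 and edgeR 3.14.0 were used, with genome build mm10. The sources used here do not name the aligner, the annotation, the strand setting or the scaling. The columns sum to 6.94 to 7.43 M and whole reads could not be recovered from the deposited values, so no count test was run. Depth was estimated from the steps between low values and is approximate.

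Every value was divided by the mean column total, 7.14 M, giving normalized counts per M. Gene names, coordinates and exon lengths come from GENCODE M21 (mm10), and promoter windows from RefSeq (GRCm38.p6). IDs missing from GENCODE M21 were looked up in a second list of gene names, and together the sources named 16026 of the IDs. Genes that reached 1 per M in 5 or more libraries were fitted on log2(value + 0.5) with the limma 3.58.1 trend method in R 4.3.3, all p-values were adjusted by Benjamini-Hochberg over the 12946 genes fitted, and the threshold was 0.05. Fold changes on this scale understate the change of low genes. Standard errors and 95% intervals are limma's. Correlations used 100000 permutations (SciPy 1.17.1). The limma fit was tested on simulated data. Other scalings, pseudocounts and filters, each library left out in turn, the run, the sex and a trend on exon length were tried as alternatives. The members and lists were chosen with earlier results of these data known, as was the comparison of 8 libraries. Values in every library are given for the 6 members with the smallest p in each comparison, the 6 highest per kb, and Srebf1, Fasn, Scd1, Pcyt1a and Lpcat1, and of the wider list up to 4 genes with the smallest p in each comparison are named.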

Additional observations from a re-analysis of the deposited data

Results flagged for a closer look

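Single libraries stood apart from the rest of their group in 3 members, among 66 sets of 5 libraries examined by the gap to the nearest value over the range (above 0.71), where chance gives about 1 in 20. Knockout 5 had the highest Pcyt1a value of its group, 143 per M, against 112 to 117 in the other 4 knockout libraries. Knockout 2 had the lowest Lpin1 value, 46.0 per M, against 51.9 to 53.8 in the other 4. Lpin1 encodes a phosphatidate phosphatase related to Lpin2. Wild type 3 had the highest Lpcat1 value, 3405 per M, against 3206 to 3238 in the other 4 wild type libraries.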

How the results depend on the processing

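The number of members that passed was 0 under all 25 alternatives with 10 libraries, all 22 with 8 and all 15 of the comparison of runs, with smallest adjusted p of 0.0743, 0.0833 and 0.0837 (limma). Leaving out 1 library moved the members' median to between 0.00 and 0.04 with 10 libraries and between -0.02 and 0.02 with 8. Of 564 values of the 12 members given in full, 545 kept their sign and side of the threshold and 19 turned sign, and of 120 relations with Srebf1 4 turned. The cause was not tested. Some alternatives give the same fold change by construction, such as the replicate block and the same libraries unblocked. These counts are therefore not of independent fits. The genes of the whole table that passed were 0 with 10 libraries, but 259 with a replicate block, 22 over the same libraries unblocked, 1 with run as covariate, 41 in the second run alone, 52 without the doubted pair and 0 to 4 without 1 library. The 52 became 29 with no filter, 406 with a replicate block, 107 over those libraries unblocked, 27 with sex as covariate, 29 in males alone and 19 to 100 without 1 library. Correlations between same-number libraries were 0.314, 0.0265, 0.0986 and 0.0792 for numbers 2 to 5, and only number 2 correlated best with its own number. So few values, 1 of them with wild type 2, cannot decide whether the replicate numbers pair the mice. Libraries of the same number also share a run.

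Sign changes with 10 libraries were Acly at -0.00193 in the first run alone, Scd1 at 0.0109 with sex as covariate, 0.0534 in the second run alone and -0.118 to 0.0728 without 1 library, and Dgat2 at -0.22 in the first run alone. Pcyt1a was 0.0145 with the replicate block and over the same libraries unblocked, 0.0592 in the second run alone, and -0.123 to 0.00705 without 1 library or the doubted pair. With 8 libraries, Acly was -0.00662 to 0.117 without 1 library. Scd1 was 0.0301 with sex as covariate, 0.0301 in males alone, 0.0534 in the second run and -0.235 to 0.0192 without 1 library. Pcyt1a was -0.0483 with the exon length trend removed and -0.0742 to 0.0747 without 1 library. Without the 2 libraries farthest from the median Srebf1 level, 1 relation passed (Acaca, r 0.86), Fads1 gave -0.21 and Fads2 -0.16. The relation of Scd1 ran from -0.30 to 0.22 when 1 library or the doubted pair was left out. Depth limits the genes under 10 per M, such as Dgat2, Pcyt1b, Pemt, Mlxipl and Elovl6.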
